A study of Mus musculus with 6 samples.

Results

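The cytosolic ribosomal protein genes were taken as every gene whose single symbol in the platform annotation begins with Rpl or Rps and a digit, together with Rplp0, Rplp1, Rplp2 and Rpsa; the ribosomal S6 kinases, Rps19bp1, Rpl7l1, Rpl22l1 and pseudogene symbols were left out. This gave 47 genes, carried by 101 probe sets, of 18193 genes with a probe set of their own. The large subunit contributed 24 genes and the small subunit 23. Each gene was represented by its brightest probe set. Probe sets whose annotation lists several symbols name no gene with certainty and were kept apart; 110 of them list a ribosomal protein symbol, and 31 ribosomal symbols, among them Rpl3, Rpl5 and Rplp1, occur only there. The arrays compared macroH2A1 shRNA cells, macroH2A2 shRNA cells and control shRNA cells, with 2 biological replicates of each. All were B16-F1 melanoma cells of C57BL/6J mouse origin, grown in DMEM with 10% serum and stably carrying a lentiviral short hairpin RNA (shRNA), which in the control was directed at GFP, a protein that mouse cells lack. The labels do not say whether a line was 1 clone or a pool, or which promoter drove the hairpin. MacroH2A1 and macroH2A2 are histone H2A variants with a large additional domain that are usually found in repressed chromatin.

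Cytosolic ribosomal proteins assemble on ribosomal RNA into the small subunit, which decodes the messenger RNA, and the large subunit, which forms the peptide bond. Their messenger RNAs are among the most abundant of a growing cell, and most of the proteins enter the ribosome in equal amounts. Most of the messenger RNAs begin with a pyrimidine-rich stretch, the TOP motif, through which mTORC1 signalling controls their translation. Surplus free ribosomal proteins such as Rpl5 and Rpl11 can bind Mdm2 and stabilise p53.

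The deposited values are linear array signals scaled by the authors, and the 2% trimmed mean was 150 on all 6 arrays, so a change in total signal between lines cannot be seen. Pairs of arrays correlated across probe sets with r from 0.978 to 0.99. The target check held for macroH2A1. Macroh2a1 gave 444.2 and 319.1 signal units in macroH2A1 shRNA cells, 1271.2 and 1170.5 in macroH2A2 shRNA cells and 1212.7 and 1262.4 in control cells. Macroh2a2 was below the level at which probe sets were tested, with 3.5 and 2 units in macroH2A1 shRNA cells, 11.9 and 8.3 in macroH2A2 shRNA cells and 6.1 and 7.5 in control cells, and the macroH2A2 knockdown cannot be checked on these arrays. All 8 melanocyte markers were measured, at 1439 to 8181 units, while those of endothelial cells, keratinocytes, fibroblasts and leukocytes lay between 2.1 and 40.5 units.

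Ribosomal protein genes held the top of the signal range. Of the 47 genes, 35 gave mean signals between 4430 and 9764 units, and all 35, or 74.5% of the genes, stood among the 450 probe sets of the brightest 1% of the array. The brightest probe set of every array was that of Rps29, a small-subunit protein, with 10419.1 and 10904.2 units in macroH2A1 shRNA cells, 9330.2 and 9734.9 in macroH2A2 shRNA cells and 9232.1 and 8964 in control cells. Among the ribosomal protein genes Rpl38, Rps3a1 and Rps10 came next, at ranks 9, 11 and 17 of the array. A step then separated these 35 genes from 8 others with mean signals between 101.5 and 881 units: Rpl37, Rps6, Rps25, Rpl27a, Rpl14, Rpl12, Rps27 and Rpl39. The remaining 4, Rpl39l, Rpl3l, Rps4l and Rps16, had mean signals of at most 2.9 units and were not tested, since the filter kept probe sets with a mean of at least 10.4 units. Rpl3l is a muscle form of Rpl3 and Rpl39l is known from the testis. Signals of different probe sets are not on a common molar scale, so the order of genes is an order of signals.

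**Figure D1:**
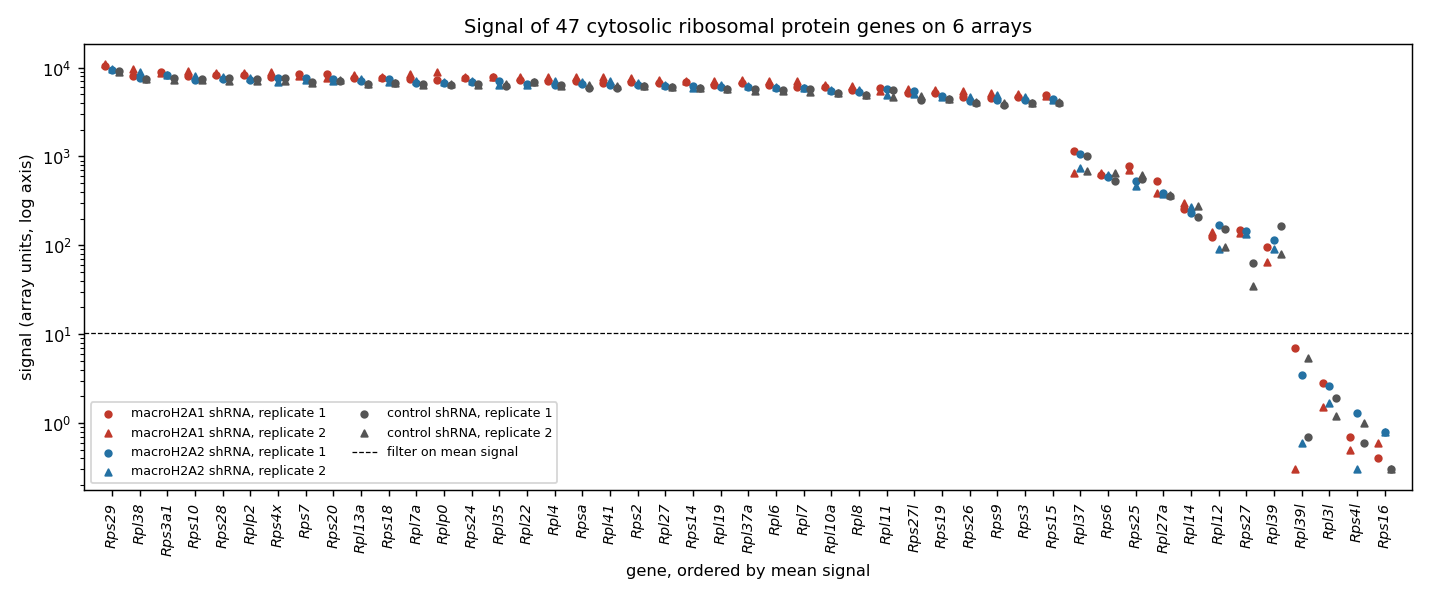
Signal of each ribosomal protein gene (log axis, array units) on the 6 arrays, genes ordered by mean signal, with circles for replicate 1 and triangles for replicate 2. The 35 brightest genes lie in a narrow band from 4430 to 9764 units, 8 lie between 101.5 and 881 units, and 4 lie below the filter of 10.4 units, drawn as a dashed line.

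Most dim genes also had a bright shared probe set. Of the 12 genes under 1000 units, 9 also had a probe set over 1000 units that lists the gene together with pseudogenes, paralogues or predicted genes. Rps16 gave 0.533 units on its own probe set, against a mean of 6646 units on the shared one. Rpl39 gave 101.5 units on its own and 7107 on the shared one, and Rps27 gave 110.2 and 4606 units. Which transcripts the dim probe sets capture was not tested.

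Promoter sequence was available from RefSeq (GRCm38.p6) for 41 of the 47 genes, in 49 windows of 250 bases before to 50 bases after an annotated start. The motif CCGGAAG, the core that ETS factors such as GABP bind, occurred on either strand in 21 windows (42.9%), against 8.86% of all 32851 windows in the table. AAGATGG, the core of the site of YY1, occurred in 7 (14.3% against 6.34%), and TATAAA, the TATA box, in 5 (10.2% against 13.6%). CTTTCC, a pyrimidine run of the kind found at TOP starts, occurred in the sense direction within 20 bases of the start in 7 windows (14.3% against 1.95%), those of Rps27, Rps10, Rpl35, Rpl38, Rpl4, Rpl13a and Rpl39l. No 2 of these motifs overlapped in a ribosomal window. Windows from 90 bases before to 20 after the start are given for Rps27, whose array values stood apart, for its paralogue Rps27l, and for Rpl35 and Rpl38, whose values followed the majority. They are written 5′ to 3′ on the strand of the gene, and capitals mark CCGGAAG or AAGATGG on either strand and CTTTCC in the sense direction near the start.
Rps27, chr3:90213629-90213738, minus strand: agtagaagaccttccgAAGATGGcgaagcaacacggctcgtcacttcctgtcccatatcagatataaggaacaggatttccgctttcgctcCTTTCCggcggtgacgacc
Rps27l, chr9:66945996-66946105, plus strand: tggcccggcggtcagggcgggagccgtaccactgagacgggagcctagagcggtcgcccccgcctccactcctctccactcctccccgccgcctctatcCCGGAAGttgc
Rpl35, chr2:39005112-39005221, minus strand: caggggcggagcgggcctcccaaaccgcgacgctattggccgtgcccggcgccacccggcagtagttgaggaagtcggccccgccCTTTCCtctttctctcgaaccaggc
Rpl38, chr11:114668490-114668599, plus strand: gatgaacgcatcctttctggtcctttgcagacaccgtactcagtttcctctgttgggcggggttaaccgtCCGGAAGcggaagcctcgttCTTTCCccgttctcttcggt
Rps27, Rpl35 and Rpl38 carry the pyrimidine run near the start, and the window given for Rps27l does not. Rps27l has a second annotated start, whose window is not shown and also lacks the run. Lacking it is the usual state, as the run was found in 7 of 49 ribosomal windows.

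In macroH2A1 shRNA cells, ribosomal protein genes mostly gave slightly higher signals than in control cells. The median log2 fold change of the 43 tested genes was 0.25 (quartiles 0.21 and 0.28), against -0.03 over all 27025 tested probe sets. It was positive in 42 genes, against 44.4% of all probe sets. In 37 genes both macroH2A1 shRNA arrays lay above both control arrays, against 13% of all probe sets, and in none did both lie below (14.9%). No single gene passed the test without the block. With limma, 0 of the 43 genes and 0 of all tested probe sets (0%) passed an adjusted p under 0.05, while 27 of the genes and 1189 of all probe sets (4.4%) had an unadjusted p under 0.05. That count of 27 genes was 1 after quantile normalization or without limma's variance trend. It was 4 with arrays centred on the median of tested probe sets and 10 without the filter. It rose to 32 with the filter at the 60th percentile, and to 34, of which 33 were higher, with the replicate number as a block. Of all probe sets, 1155 had an unadjusted p under 0.05 after quantile normalization and 2388 with the block. With the replicate number as a block, limma called 1 gene, Rps27, and 52 probe sets (0.192%). The dimmest tested gene averaged 101.5 units, far above the filter, so no gene entered the test through 1 group alone. Each array measured the RNA of a whole culture, in which fewer cells of a type and less RNA per cell cannot be told apart.

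The shift was of nearly one size across the bright genes. Among the 35 genes over 1000 units it ranged from 0.14 to 0.31, with a median of 0.26 and an SD across genes of 0.04, while the standard errors of single genes were 0.09 to 0.13. The median was 0.25 in the small subunit and 0.26 in the large. Rplp0, a scaffold of the stalk that recruits elongation factors, gave 7297.8 and 8809.4 units in macroH2A1 shRNA cells, 6729.1 and 6860.2 in macroH2A2 shRNA cells and 6347.7 and 6540.4 in control cells. All macroH2A1 shRNA arrays of Rplp0 lay above the others, with a log2 fold change of 0.31 (SE 0.11, limma adjusted p = 1). Rps26 and Rps9, near the messenger RNA path of the small subunit, were also at 0.31, Rpl37a and Rpl7a at 0.30. At the lower end stood Rpl22 at 0.14, Rpl11, which binds Mdm2 when free, at 0.16, and Rps4x and Rps20 at 0.18. Neighbours in this order differed by less than their standard errors.

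Replicate 2 gave the larger shift. Within replicate 1 the median of the genes was 0.20 and within replicate 2 it was 0.31. The median signal of the 43 tested genes per array was 6713 and 7168 units in macroH2A1 shRNA cells. It was 6157 and 6334 units in macroH2A2 shRNA cells and 5836 and 5834 in control cells. The arrays of the 3 groups did not overlap in this median. All probe sets with a symbol of this form held 9.38% and 9.77% of the total signal in macroH2A1 shRNA cells. The share was 8.79% and 8.91% in macroH2A2 shRNA cells and 8.48% and 8.34% in control cells. This sum includes probe sets with several symbols, the S6 kinases and the other symbols left out of the gene set.

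In macroH2A2 shRNA cells the shift had the same sign and was smaller. Both comparisons use the same 2 control arrays. The median log2 fold change was 0.10 (quartiles 0.06 and 0.12), against -0.03 over all tested probe sets, and it was positive in 39 of 43 genes, against 44.3% of all probe sets. In 29 genes both macroH2A2 shRNA arrays lay above both control arrays (13% of all probe sets), and in 2, Rpl22 and Rps25, both lay below (16.2%). The largest values after Rps27 were those of Rps9 at 0.24, Rps27l at 0.20 and Rpl41, the shortest ribosomal protein, at 0.17. With limma, 0 genes and 0 probe sets (0%) passed, and 1 gene and 1075 probe sets (3.98%) had an unadjusted p under 0.05. With the replicate block, limma called Rps27 and 39 probe sets in all (0.144%).

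Set directly against each other, macroH2A2 shRNA cells gave lower ribosomal signals than macroH2A1 shRNA cells. The median log2 difference, macroH2A2 shRNA minus macroH2A1 shRNA, was -0.15, against -0.005 over all probe sets, and it was negative in 41 of 43 genes, against 51.1% of all probe sets. In 30 genes both macroH2A2 shRNA arrays lay below both macroH2A1 shRNA arrays, against 14.6% of all probe sets, and in none did both lie above (13.3%). With limma, 0 genes and 0 probe sets (0%) passed; 2 genes, Rpl22 and Rps25, and 739 probe sets (2.73%) had an unadjusted p under 0.05. With the block, 0 genes and 1 probe set (0.0037%) were called. The group means of log2 values ran, in 38 genes, macroH2A1 shRNA over macroH2A2 shRNA over control. Rpl22, Rps25 and Rps4x had macroH2A2 shRNA lowest, Rpl37 had it highest by a margin within its SE, and Rpl39 had control highest.

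**Figure D2:**
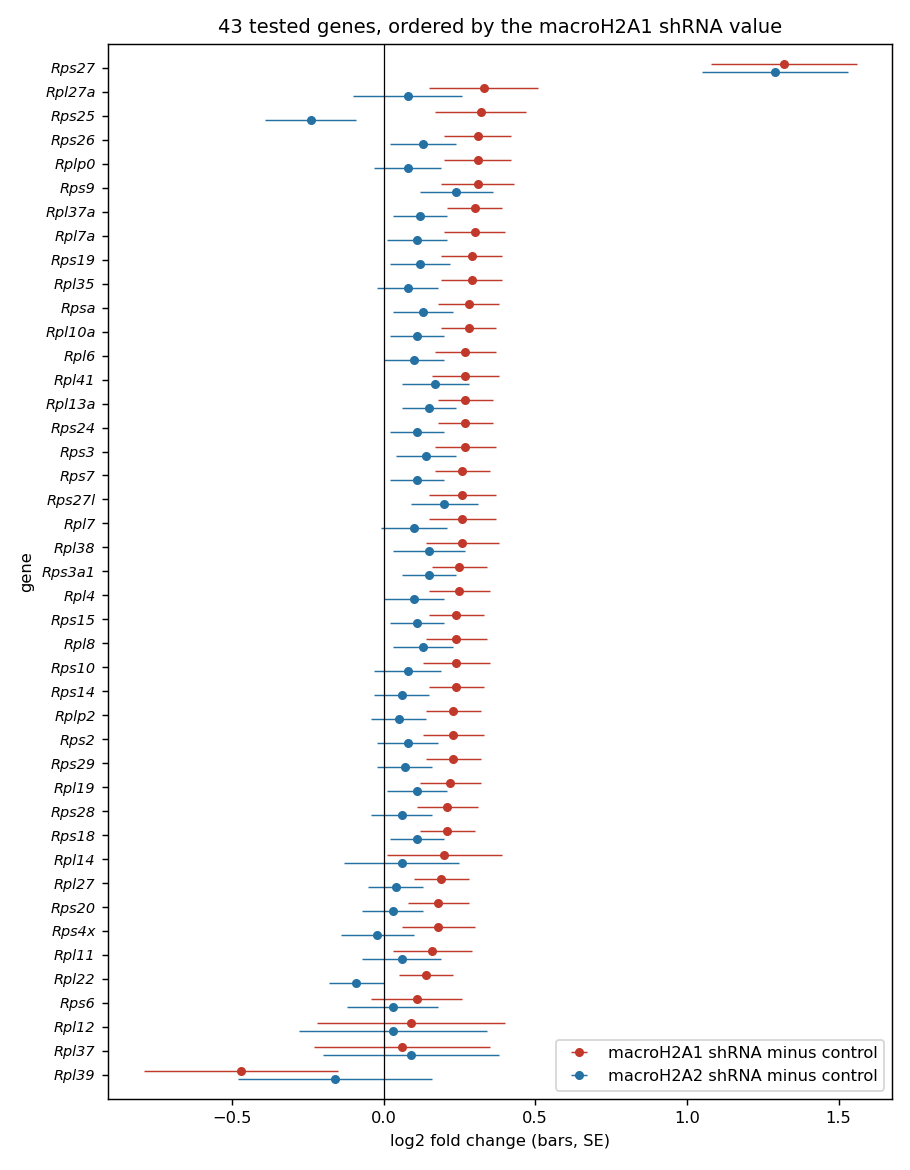
Log2 fold change against control, with its standard error, of the 43 tested genes in macroH2A1 shRNA cells (red) and macroH2A2 shRNA cells (blue), ordered by the macroH2A1 shRNA value. Most genes lie near the medians of 0.25 and 0.10, and Rps27 lies at 1.32 and 1.29. In macroH2A1 shRNA cells only Rpl39 is negative, at -0.47. In macroH2A2 shRNA cells Rps25, Rpl39, Rpl22 and Rps4x are negative, at -0.24, -0.16, -0.09 and -0.02.

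Signal level moved with the shift. Tested probe sets with no ribosomal symbol and a mean signal of 4000 units or more numbered 249, and their median log2 fold change was 0.16 in macroH2A1 shRNA cells, where 231 were positive, and 0.08 in macroH2A2 shRNA cells, where 214 were positive. Between 2000 and 4000 units the medians were 0.08 and 0.08, between 500 and 2000 units 0.02 and 0.04, and under 50 units -0.07 and -0.08. The ribosomal genes over 1000 units had medians of 0.26 and 0.11, and their difference from the other bright probe sets was not tested. The 99th percentile of the non-ribosomal probe sets was 3072 and 3208 units in macroH2A1 shRNA cells, 3106 and 3098 in macroH2A2 shRNA cells and 2888 and 3007 in control cells.

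Quantile normalization, which gives every array the same set of values and keeps only the order of its probe sets, took away most of the shift. The median of the 43 genes became 0.05 in macroH2A1 shRNA cells, with 34 positive against 50.7% of all probe sets, and 0.02 in macroH2A2 shRNA cells, with 29 positive against 51.5%. The count without overlap was then 13 genes higher and 2 lower in macroH2A1 shRNA cells, against 15.1% and 13.9% of all probe sets, and 9 higher and 4 lower in macroH2A2 shRNA cells, against 15.6% and 14.6%. The difference of the 2 knockdowns had a median of -0.02, with 10 genes positive against 50.6% of all probe sets, and without overlap 1 gene was higher and 11 lower in macroH2A2 shRNA cells, against 13.8% and 13.9%. Values of Rpl22, Rps4x, Rps20 and Rpl11 in macroH2A1 shRNA cells then lay below 0, at -0.09, -0.07, -0.05 and -0.0021. Those of Rpl27, Rps18 and Rps28 did so too, each at -0.03, and that of Rpl39, negative as deposited, was -0.44. For the non-ribosomal probe sets of 4000 units or more the medians became -0.02 and -0.00086. Of the 100 brightest probe sets 59 carry a ribosomal symbol, so the values given to the top ranks come largely from these genes, and Rps29, first on every array, was set to a difference of 0 by construction. Whether the shift as deposited is one of RNA or of the scale of bright signals was not tested.

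**Figure D3:**
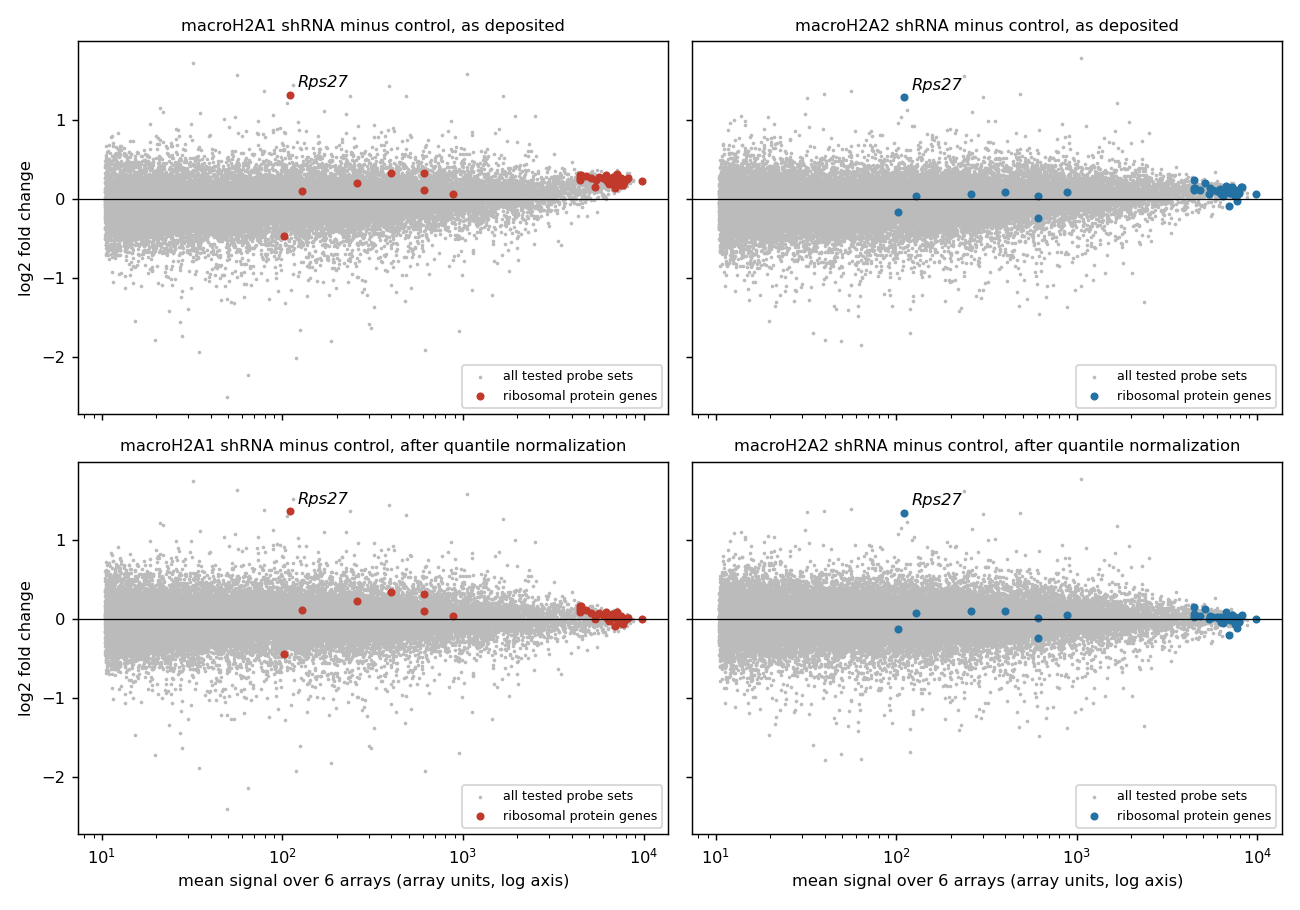
Log2 fold change against mean signal (log axis, array units) of all tested probe sets (grey) and ribosomal protein genes (coloured), for macroH2A1 shRNA (left) and macroH2A2 shRNA (right), as deposited (top) and after quantile normalization (bottom). As deposited the bright end bends above 0, with ribosomal medians of 0.25 and 0.10, and after normalization these are 0.05 and 0.02, while Rps27 stays at 1.37 and 1.35.

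Rps27, a zinc-finger protein of the small subunit also known as metallopanstimulin, had the largest value in both knockdowns. Its own probe set gave 147.8 and 137 units in macroH2A1 shRNA cells, 144.7 and 133.9 in macroH2A2 shRNA cells and 62.7 and 35 in control cells. All knockdown arrays lay above both control arrays, and the 2 control arrays differed most from each other. The means were 142.4 ± 7.64 units in macroH2A1 shRNA cells, 139.3 ± 7.64 in macroH2A2 shRNA cells and 48.9 ± 19.6 in control cells (SD, n = 2 each). In macroH2A1 shRNA cells the log2 fold change was 1.32 (SE 0.24, 2.5-fold), for which limma gave an adjusted p of 0.498, or 0.0244 with the replicate block. In macroH2A2 shRNA cells it was 1.29 (SE 0.24, 2.45-fold), for which limma gave an adjusted p of 0.646, or 0.0306 with the block. Within replicate 1 the values were 1.06 and 1.03, and within replicate 2 they were 1.58 and 1.56. The blocked call in limma rests on single arrays and on the filter. Without control replicate 2 the adjusted p was 0.128 and 0.098 in macroH2A1 and macroH2A2 shRNA cells, without control replicate 1 it was 0.07 in macroH2A2 shRNA cells, without macroH2A1 shRNA replicate 2 it was 0.139 in macroH2A1 shRNA cells, and without the filter it was 0.255 and 0.294.

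The bright probe set that lists Rps27rt and Rps27 together did not repeat this value. It gave 4954.2 and 5319.9 units in macroH2A1 shRNA cells, 4207.8 and 4841.5 in macroH2A2 shRNA cells and 4076 and 4234.6 in control cells. The macroH2A1 shRNA arrays lay above the control arrays and the macroH2A2 shRNA arrays overlapped them. Its log2 fold change was 0.30 (SE 0.11) in macroH2A1 shRNA cells and 0.12 (SE 0.11) in macroH2A2 shRNA cells, near the medians of all ribosomal genes, and limma's adjusted p was 1 in both. Rps27l, the paralogue that p53 induces, was measured by 3 bright probe sets. The brightest gave 5195.3 and 5800.1 units in macroH2A1 shRNA cells, 5465.8 and 5053.3 in macroH2A2 shRNA cells and 4372.9 and 4807.7 in control cells. The log2 fold changes of the 3 probe sets ranged from 0.22 to 0.30 in macroH2A1 shRNA cells and from 0.19 to 0.22 in macroH2A2 shRNA cells, and none passed limma's test.

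**Figure D4:**
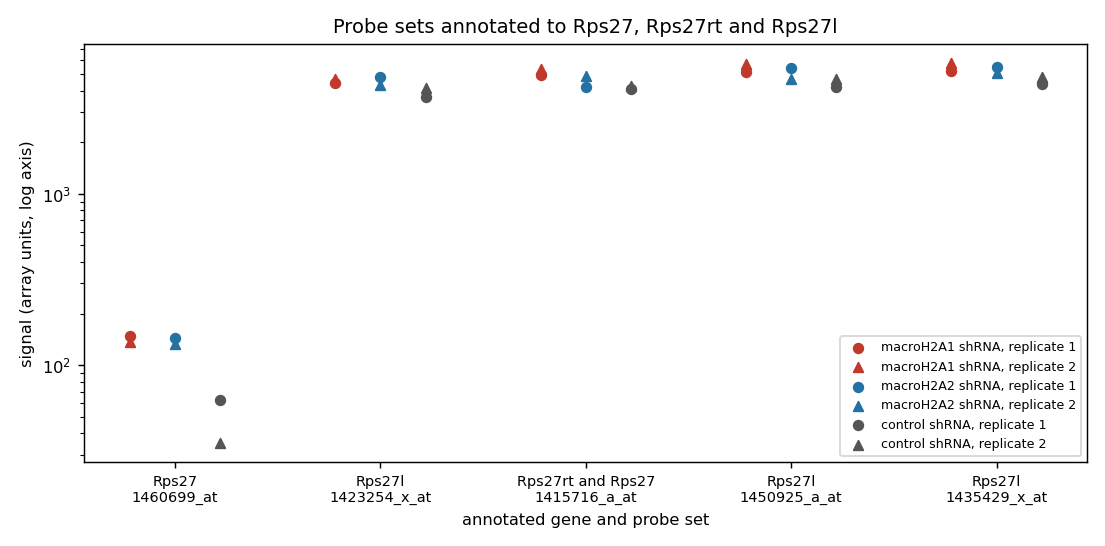
Signal (log axis, array units) on the 6 arrays of the probe sets annotated to Rps27, to Rps27rt and Rps27, and to Rps27l, ordered by mean signal, with circles for replicate 1 and triangles for replicate 2. The dim Rps27 probe set separates the knockdown arrays, at 133.9 to 147.8 units, from the control arrays, at 35 and 62.7 units, and the 4 bright probe sets differ far less between groups.

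On the probe sets that represent them, as deposited, Rpl22 and Rps25 lay on opposite sides of the control arrays in the 2 knockdowns. Both macroH2A1 shRNA arrays lay above, and both macroH2A2 shRNA arrays below, both control arrays. This direction was seen in 2 of 43 genes, against 0.847% of all probe sets. The direction counted is the one these genes showed, and the reverse was not counted over all probe sets. Rpl22 is a large-subunit protein that also binds viral and cellular RNAs. Its brightest probe set gave 7305.7 and 7895.2 units in macroH2A1 shRNA cells, 6521.2 and 6367.1 in macroH2A2 shRNA cells and 6825.2 and 6934.8 in control cells. The groups did not overlap, and the macroH2A2 shRNA minus macroH2A1 shRNA difference was -0.24 (SE 0.09), with an unadjusted p of 0.0334 in limma and an adjusted p of 1, or 0.643 with the block. After quantile normalization the difference was -0.11, and both knockdowns had values below control, -0.09 in macroH2A1 shRNA cells and -0.20 in macroH2A2 shRNA cells. The second probe set of Rpl22 gave -0.22 for that difference and the third, with signals of 608.5 and 693 units in macroH2A1 shRNA cells, 269.5 and 400.5 in macroH2A2 shRNA cells and 512.3 and 363.4 in control cells, gave -0.95 (SE 0.23). On these other probe sets the macroH2A2 shRNA arrays overlapped the control arrays. All 3 probe sets of Rpl22 were lower in macroH2A2 shRNA cells than in macroH2A1 shRNA cells on every array.

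Rps25, which is needed for initiation at several viral internal entry sites, gave 781.4 and 700.9 units in macroH2A1 shRNA cells, 532.5 and 459.5 in macroH2A2 shRNA cells and 557.8 and 619.6 in control cells. The difference between the knockdowns, macroH2A2 shRNA minus macroH2A1 shRNA, was -0.57 (SE 0.15), for which limma gave an adjusted p of 1, or 0.417 with the block, and it was -0.56 after quantile normalization. The bright probe set shared by Gm6988, Gm4963 and Rps25 gave 5562.3 and 6084.6 units in macroH2A1 shRNA cells, 5118.5 and 5223.7 in macroH2A2 shRNA cells and 4579.1 and 4637.8 in control cells. There both knockdowns lay above control, at log2 fold changes of 0.34 and 0.17, so the opposite sides were seen on the dim probe set of Rps25 and not on the bright shared one.

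Rpl39, a small basic protein at the exit tunnel, was the one gene with a negative value in macroH2A1 shRNA cells. Its own probe set gave 95.3 and 64.8 units in macroH2A1 shRNA cells, 114.5 and 90.2 in macroH2A2 shRNA cells and 163.4 and 80.7 in control cells, and these overlap. The probe set shared by Gm32211 and Rpl39 gave 7549 and 9527.5 units in macroH2A1 shRNA cells, 6029.7 and 6419.4 in macroH2A2 shRNA cells and 6692.8 and 6421.3 in control cells. Its log2 fold changes were 0.37 and -0.08, of opposite sign in macroH2A1 shRNA cells to the dim probe set. Both macroH2A1 shRNA arrays lay above, and both macroH2A2 shRNA arrays below, both control arrays, the closest pair being 6419.4 and 6421.3 units. The macroH2A2 shRNA minus macroH2A1 shRNA difference was -0.45 (SE 0.12) and -0.30 after quantile normalization. It did not pass limma's test, with an adjusted p of 0.32 with the block. The bright shared probe sets of Rpl12, Rpl14, Rpl27a, Rpl37, Rps6 and Rps16 gave 0.21 to 0.24 in macroH2A1 shRNA cells and 0.03 to 0.13 in macroH2A2 shRNA cells. Over all 106 tested probe sets with several symbols the medians were 0.23 and 0.10, and after quantile normalization 0.04 and 0.02. Among 20 genes with more than 1 tested probe set of their own, all probe sets of a gene had the same sign in 15 genes in each comparison with control.

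Genes of the ribosome and of translation were also read from lists. Of 22 translation factors and related genes with TOP messenger RNAs, 18 were measured, and 0 passed limma's test with or without the block. All 18 had positive values in macroH2A1 shRNA cells (median 0.22) and 15 in macroH2A2 shRNA cells (median 0.08), and after quantile normalization the medians were 0.07 and -0.01. Npm1, a nucleolar chaperone, gave 6490.2 and 6593.8 units in macroH2A1 shRNA cells, 6250.5 and 6082.7 in macroH2A2 shRNA cells and 5328.3 and 5579.2 in control cells, a log2 fold change of 0.26 and 0.18 in the 2 knockdowns. Naca, which binds nascent chains, stood at 0.27 and 0.16. The 11 measured of 19 genes mutated in Diamond-Blackfan anaemia, all ribosomal proteins, had medians of 0.26 and 0.08. They are all among the ribosomal protein genes described above, so these values are not a further result. Of the 11, limma called 1, Rps27, with the block in each comparison with control, against 0.192% and 0.144% of all probe sets.

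Genes that make ribosomes or control their production had medians nearer 0 in macroH2A1 shRNA cells. They were also dimmer, with median signals of 399 to 695 units in the lists below, against 6275 in the ribosomal protein genes. In macroH2A1 shRNA cells, non-ribosomal probe sets of 50 to 500 units had a median of -0.03, and those of 500 to 2000 units 0.02. A difference of the lists from probe sets of like signal was not tested. The 34 measured of 35 ribosome biogenesis genes, with mean signals of 51.3 to 3481 units, had medians of 0.06 in macroH2A1 shRNA cells and 0.16 in macroH2A2 shRNA cells, with 23 and 31 positive. The macroH2A2 shRNA median was 0.40 within replicate 1 and -0.12 within replicate 2, so its sign did not hold within both replicates. After quantile normalization the medians of this list were 0.07 and 0.16. Nop10, 1 of 3 genes of the list that were negative in macroH2A2 shRNA cells, stood at -0.55 (SE 0.16). Both macroH2A2 shRNA arrays of Nop10 lay below both control arrays. Limma's adjusted p for Nop10 was 0.969, or 0.105 with the block. The 76 mitochondrial ribosomal protein genes, at 111.4 to 3633 units, had medians of 0.03 and 0.11, with 49 and 62 positive. After quantile normalization these medians were 0.03 and 0.09. Within replicates 1 and 2 the macroH2A2 shRNA median was 0.24 and -0.05. The 13 measured of 16 mTORC1 and S6 kinase genes had medians of 0.01 and 0.04. The 8 transcription factors known to act on ribosomal protein promoters had medians of 0.08 and 0.11, with Myc at 0.18 and -0.02 and Yy1 at -0.03 and 0.13. In none of these lists did a gene pass limma's test, with or without the block.

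Among 8 measured of 10 p53 response genes, 6 had positive values in macroH2A1 shRNA cells (median 0.14), against 44.4% of all probe sets. In macroH2A2 shRNA cells 3 were positive (median -0.15), against 44.3%. Within replicates 1 and 2 the medians were 0.09 and 0.20 in macroH2A1 shRNA cells, with 4 and 6 positive. They were -0.16 and 0.01 in macroH2A2 shRNA cells, where the sign did not hold. Rps27l, itself among the ribosomal protein genes, was 1 of the positive genes in both knockdowns, at 0.26 and 0.20. Zmat3, an RNA-binding p53 target, gave 484.8 and 605.7 units in macroH2A1 shRNA cells, 301.5 and 343.5 in macroH2A2 shRNA cells and 270.9 and 310 in control cells. Both macroH2A1 shRNA arrays lay above all others, and the log2 fold change was 0.87 (SE 0.17), for which limma gave an adjusted p of 0.569, or 0.044 with the block. The call on Zmat3 was made in 3 of 10 blocked limma fits and lost on leaving out any single macroH2A1 shRNA or control array (adjusted p from 0.136 to 0.461). Cdkn1a, the p21 cell cycle inhibitor, gave 640.5 and 1245.6 units in macroH2A1 shRNA cells, 479.1 and 670.7 in macroH2A2 shRNA cells and 852.6 and 841.6 in control cells, values of 0.08 and -0.57 that did not pass.

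**Figure D5:**
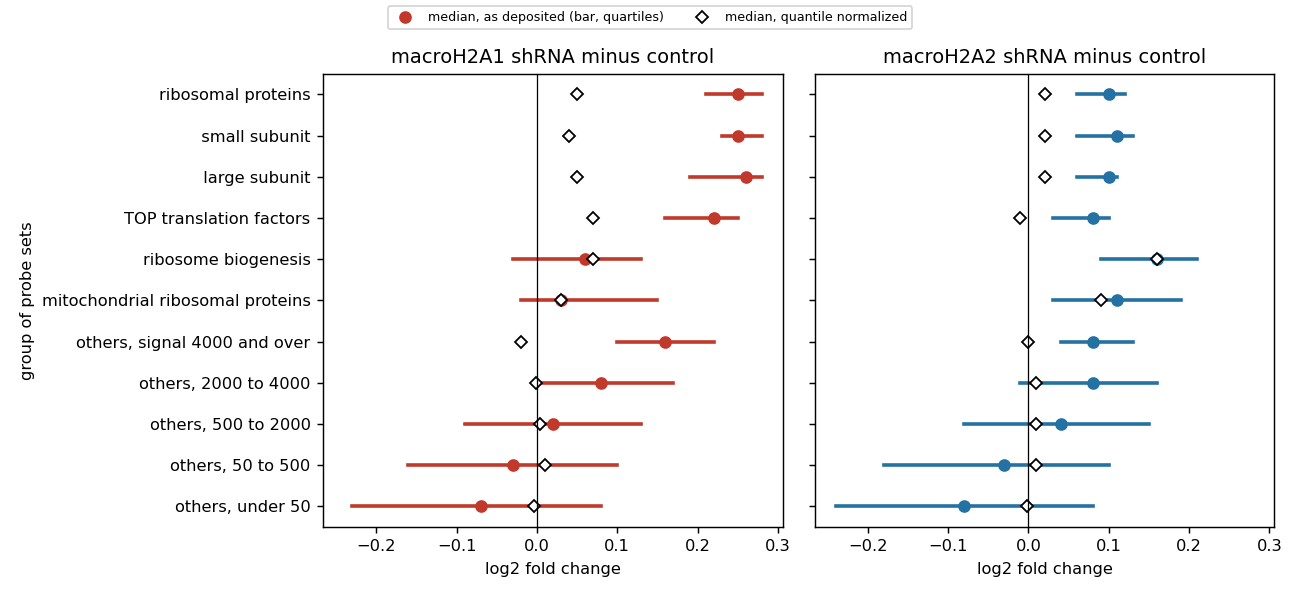
Median log2 fold change (dot) with quartiles (bar) of groups of probe sets, as deposited, and the median after quantile normalization (diamond), for macroH2A1 shRNA (left) and macroH2A2 shRNA (right) minus control. As deposited, the ribosomal proteins, the TOP translation factors and the other probe sets of 4000 units and over lie above 0. Their medians after normalization lie between -0.02 and 0.07. In macroH2A2 shRNA cells the medians of ribosome biogenesis and mitochondrial ribosomal protein genes were 0.16 and 0.11. They were 0.16 and 0.09 after normalization.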

How the data were processed

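RNA of 6 samples, 2 for each of 3 stable shRNA lines, was hybridised to 1-colour Affymetrix arrays. The authors deposited linear intensities, 1 per probe set; the submitters' processing notes name MAS5, in a version not given in the sources used here. Their scaling sets a common trimmed mean of 150, and no probe-level data were used. Intensity over background limits the precision of dim probe sets, and 6 arrays limit that of all values. The labels call replicates biological, without naming separate cultures, so p-values measure the spread between these samples, which may be technical.

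Of 45101 probe sets, 64 controls were left out; 34945 of the others had 1 gene symbol, 932 several and 9160 none. The unit of all tests is log2(signal + 16) of the deposited intensity, which understates fold changes of dim probe sets. Probe sets with a mean signal at or above the 40th percentile (10.4 units) were tested, 27025 in all, in 1 limma fit (limma 3.58.1, R 4.3.3, lmFit and eBayes with trend; 3 residual and 4.9 prior degrees of freedom) over all 6 arrays, with Benjamini-Hochberg adjustment over all probe sets and a threshold of 0.05.

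The labels give each line the same replicate numbers. Replicate 1 minus replicate 2 differences correlated between lines with r of 0.415, 0.576 and 0.372, so a fit with the number as a block was made, and its value is given where it changes a call. Alternatives were quantile normalization, 2 centrings, a pseudocount of 1, other filters, no variance trend, probe set types and leaving out each array. Genes were picked for naming as the 6 highest and lowest of each comparison and the 4 brightest and 4 dimmest. The paralogue pairs, Rpl5, Rpl11, the stalk proteins, Rps27a and every gene past the threshold were picked too. Up to 4 genes of a list with the smallest p were added, and others were named after their values were seen. Not every gene picked is given values in the text, and Rpl5 and Rps27a have none there. The genes and lists were chosen with earlier results of these data known, so no count over them is independent support. Motifs were searched with Python 3.11.15.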

Additional observations from a re-analysis of the deposited data

Results flagged for a closer look

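Rpl22 stood out because on its brightest probe set both macroH2A1 shRNA arrays lay above, and both macroH2A2 shRNA arrays below, the control arrays; the difference, macroH2A2 shRNA minus macroH2A1 shRNA, was -0.24 on the log2 scale and did not pass limma's adjusted test. After quantile normalization it was -0.11 and both knockdowns had values below control, and on the other probe sets of Rpl22 the macroH2A2 shRNA arrays overlapped the control arrays. Rps25 stood out in the same way on its dim probe set, with a difference of -0.57 that did not pass either. On the bright probe set shared by Gm6988, Gm4963 and Rps25 both knockdowns lay above control, at 0.34 and 0.17. Among the ribosomal protein genes, 2 of 43 had this arrangement, against 0.847% of all tested probe sets. The direction counted is the one these genes showed, so the comparison is not independent support. The probe set shared by Gm32211 and Rpl39, outside these 43, had the arrangement too.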

How the results depend on the processing

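With the replicate number as a block, the probe sets that limma called became 52, 39 and 1 for macroH2A1 shRNA and macroH2A2 shRNA against control and for the direct comparison of the knockdowns, against 0 without it. Together with quantile normalization they became 22, 16 and 1, and together with arrays centred on the ribosomal median, an alternative chosen after seeing the data, 301, 48 and 1. Without the filter, the block gave 0, 0 and 0 called probe sets and no ribosomal gene. In each of the other 3 blocked settings 1 ribosomal gene was called in either comparison with control. The ribosomal median was 0.05, 0.02 and -0.02 after quantile normalization, with or without the block, and 0.31 and 0.17 against control when arrays were centred on the median of tested probe sets. Centring on the ribosomal genes set it to 0.0032, 0.0045 and 0.0035, the last reversed in sign, by construction and likewise with the block. Leaving out 1 array at a time left 0 calls without the block and median ranges of 0.19 to 0.29, 0.08 to 0.12 and -0.2 to -0.09. With the block it gave 26 to 515, 3 to 804 and 3 to 204 called probe sets, 0 to 1, 0 to 1 and 0 ribosomal genes, and medians of 0.21 to 0.29, 0.07 to 0.14 and -0.18 to -0.1. Where this left 1 array in a group, that array was assumed to vary like the others. For the 18 named genes, 1258 of 1272 alternative values lay on the same side of the test's threshold, and the other 14 were blocked fits in which Rps27 passed. The sign changed in 116 of the 1272 values, none of them past the threshold: 20 after quantile normalization, 44 with arrays centred on the ribosomal genes, 51 on leaving out 1 array and 1 elsewhere. Rps27 was called in 7 of 10 blocked fits in each comparison with control, in which its log2 fold change ranged from 1.06 to 1.58 and from 1.03 to 1.56, and in 0 of 15 fits without the block.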
